A study of Mus musculus with 23 samples.

Results

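Late in the first meiotic prophase, at diplotene, 35 of 18193 genes on a mouse expression array stood high, while the same RNAs were lower in leptotene/zygotene cells before it and in round spermatids after it. The genes were chosen by their values in 3 cell fractions. On the log2(intensity + 1) scale the diplotene mean was at least 8, at least 3 above the leptotene/zygotene mean and at least 2 above the round spermatid mean. Diplotene, leptotene/zygotene and round spermatid values of the 35 genes are therefore descriptions here and carry no test. Each gene was read from 1 probe set, the one with the highest mean over the wild-type arrays among those annotated to a single gene.

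Male germ cells were sorted by flow cytometry from testes stained with Hoechst 33342, a DNA dye, and their total RNA was hybridised to Affymetrix arrays. Wild-type cells came from C57BL6xDBA2J F1 males aged 10 to 16 weeks. Their 20 arrays comprised 4 of spermatogonia, 3 of pre-leptotene cells, 3 of leptotene/zygotene, 1 of early pachytene, 2 of mid-pachytene, 1 of late pachytene, 2 of diplotene and 4 of round spermatids. Males lacking Spo11 (Spo11-/-), of the same ages, gave 3 further arrays: 1 of spermatogonia, 1 of pre-leptotene and 1 of leptotene/zygotene cells. The Spo11-/- testes were taken in 2 collections, from 4 and 3 mice, and the cells were combined before RNA was made, so each array is a pool. The strain of the Spo11-/- mice is not stated in the labels used here. Spo11 encodes the enzyme that makes the DNA breaks of meiotic recombination, and germ cells without it arrest before they complete prophase. The Spo11 RNA itself measured 4.30, 4.80 and 5.21 on the 3 Spo11-/- arrays, against 4.60 to 7.03 on the 7 wild-type arrays of spermatogonia and pre-leptotene and 7.42 to 8.95 in leptotene/zygotene; where its probes lie relative to the mutation is not given, and in the earlier fractions the difference did not pass (-1.40 ± 0.69, limma adjusted p = 0.275). Stage references followed the labels only in part. Kit, the stem cell factor receptor of spermatogonia, was 10.6 to 11.5 in wild-type spermatogonia. It was 8.71 and 9.05 in mid-pachytene and 5.01 and 5.34 in diplotene. Ldhc, a testis lactate dehydrogenase, was 15.1 on both mid-pachytene arrays but already 11.2 to 13.0 in wild-type spermatogonia. Prdm9, an early prophase marker, was 4.34 to 6.10 in wild-type spermatogonia and 4.49 to 4.77 in leptotene/zygotene. Prm1, a spermatid gene, was 13.9 to 15.4 in wild-type spermatogonia and 14.1 to 14.8 in round spermatids. Wild-type replicates are labelled biological, without saying whether they came from separate mice, so p-values measure the spread between these arrays.

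Pachytene is the long stage at which homologous chromosomes lie fully paired, and diplotene is the stage at which they begin to separate. Transcription in the testis is high in this window, and much of what is made there is kept for the round spermatid, the haploid cell that follows. Among the RNAs of pachytene cells are the precursors of piRNAs, short RNAs bound by PIWI proteins that silence transposons and other targets. Of 787 genes on this array that met the diplotene and leptotene/zygotene thresholds, 407 had a round spermatid mean above the diplotene mean, 291 were lower by up to 1, 54 were lower by 1 to 2, and the 35 genes described here, 4.45%, were lower by at least 2. In a sorted population, fewer cells that hold an RNA and less RNA per cell cannot be told apart.

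**Figure D1:**
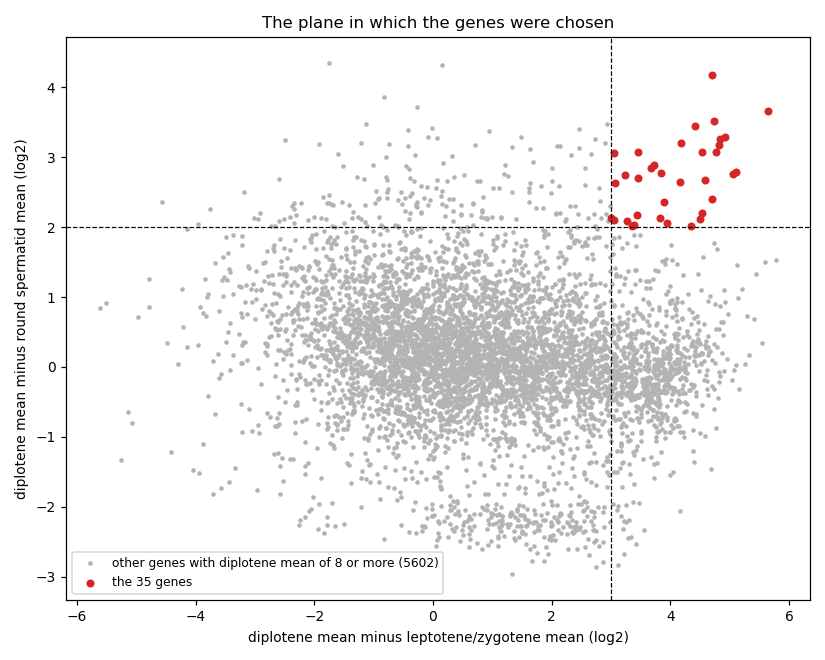
Diplotene mean minus leptotene/zygotene mean (horizontal, log2) against diplotene mean minus round spermatid mean (vertical, log2) for the 5637 genes with a diplotene mean of at least 8; the dashed lines are the thresholds of 3 and 2. The 35 genes (red) occupy the upper right corner, while most genes right of the vertical line lie near a vertical value of 0.

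The working description of these genes, lost in spermatids, did not match the round spermatid arrays, where signal remained. No gene of the 35 lay below log2 4, the level used here as a floor for detection, on every round spermatid array, and only 2 did so on any of them. The round spermatid mean exceeded the leptotene/zygotene mean for 34 genes; Exoc8, at 6.78 against 6.80, was the exception. Every round spermatid array lay above every leptotene/zygotene array for 21 of the 35 genes, beside 36.3% of all genes tested; the rule asks for a wider gap to leptotene/zygotene than to spermatids and so favours this order. Every round spermatid array lay above every spermatogonia and pre-leptotene array for 30, beside 30.9%. The genes were chosen for a rise before diplotene and on their spermatid values, which bears on this count too. Both diplotene arrays lay above all 4 round spermatid arrays for all 35, with a gap between the nearest arrays of 0.32 to 2.85. The RNAs were lower in the round spermatid fraction, by a median of 2.75 on the log2 scale and at most by 4.18. Whether the remaining signal came from the spermatids or from other cells in the fraction was not tested.

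Of the 35 genes, 23 are protein coding in RefSeq, 8 are long non-coding RNAs, 2 are transcribed pseudogenes, 1 is a pseudogene and 1 has no RefSeq entry in the table used. Long non-coding RNAs made up 23.5% of the 34 genes with an entry, 12.7% of the genes that met the first 2 thresholds, 2.65% of all genes with a diplotene mean of at least 8 and 7.51% of genes on the array. None of the 34 lay on the X or the Y chromosome. On the array 617 of 18032 genes were X-linked, a share so small that none among 34 is not far from it. Among the fixed lists of gene roles only 3 members were found: Piwil1 in the piRNA list, Pou5f2 among transcription regulators and Dnaaf6 among axoneme genes. Without round spermatid replicate 4, 31 of the 35 genes met the thresholds. Pou5f2, Dnaaf6, Bbs1 and Mmachc then fell short of the spermatid threshold.

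The upstream sequences of 5 of the genes are shown because the best known regulator of pachytene transcription, MYBL1, binds a short defined motif. The course that the 35 share was set by the rule, and regulation by MYBL1 was not tested. RefSeq (GRCm38.p6) gave an upstream sequence for 25 of the 35 genes. Each line gives the 250 bases before the annotated start, on the strand of the gene; capitals mark AACTG or AACGG, the core of the MYB motif, read on either strand. The genes are Piwil1, the long non-coding RNAs 4930444F02Rik and 4931408D14Rik, Elfn2, one of the genes with the largest differences between diplotene and spermatids, and Mmachc, which had 3 matches; the last and the non-coding genes were picked after their values or matches were seen.
Piwil1: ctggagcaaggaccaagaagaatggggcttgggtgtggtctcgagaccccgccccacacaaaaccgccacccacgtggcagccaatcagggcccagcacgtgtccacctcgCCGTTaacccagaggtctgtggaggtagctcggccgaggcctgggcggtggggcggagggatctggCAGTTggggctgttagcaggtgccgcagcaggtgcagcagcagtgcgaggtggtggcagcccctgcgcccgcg
4930444F02Rik: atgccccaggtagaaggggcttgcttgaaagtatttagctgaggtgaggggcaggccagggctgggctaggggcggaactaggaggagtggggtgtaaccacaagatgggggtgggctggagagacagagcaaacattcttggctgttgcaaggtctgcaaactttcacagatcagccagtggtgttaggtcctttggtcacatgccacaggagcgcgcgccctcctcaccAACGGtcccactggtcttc
4931408D14Rik: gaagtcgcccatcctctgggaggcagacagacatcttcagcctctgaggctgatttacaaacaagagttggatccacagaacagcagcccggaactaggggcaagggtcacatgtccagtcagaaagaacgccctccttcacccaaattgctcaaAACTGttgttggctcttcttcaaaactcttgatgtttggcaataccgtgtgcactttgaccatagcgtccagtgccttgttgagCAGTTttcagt
Elfn2: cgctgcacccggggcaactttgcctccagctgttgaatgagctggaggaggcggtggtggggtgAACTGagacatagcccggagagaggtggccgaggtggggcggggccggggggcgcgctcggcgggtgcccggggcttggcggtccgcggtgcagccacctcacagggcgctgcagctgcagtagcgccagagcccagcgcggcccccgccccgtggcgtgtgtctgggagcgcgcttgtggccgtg
Mmachc: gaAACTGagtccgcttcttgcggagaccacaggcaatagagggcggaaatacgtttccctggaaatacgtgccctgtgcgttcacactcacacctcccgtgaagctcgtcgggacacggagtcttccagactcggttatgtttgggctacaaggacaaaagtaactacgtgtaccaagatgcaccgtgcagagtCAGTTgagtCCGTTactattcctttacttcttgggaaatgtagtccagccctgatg
The Piwil1 window lies at chr5:128735996-128736245 on the plus strand and holds 2 matches, 139 and 73 bases before the start. The 4930444F02Rik window, at chr10:18831931-18832180 on the minus strand, holds 1 match 19 bases before the start, and that of 4931408D14Rik, at chr19:37264096-37264345 on the minus strand, holds 2, at 95 and 11 bases. Elfn2 (chr15:78718772-78719021, minus strand) has 1 match at 186 bases and Mmachc (chr4:116708386-116708635, minus strand) has 3, at 248, 56 and 47 bases. The 5 genes shown all hold a match. In the same 250 bases 1700029M20Rik, Aym1, Kctd7, Tgfa, AI467606, Arhgap20, C2cd4b, Cep97 and Bbs1 hold none.

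Over the full RefSeq windows, which run from 250 bases before to 50 bases after the start, AACTG or AACGG on either strand occurred in 19 of 25 genes (76.0%), against 53.5% of 10597 tested genes with a window and 55.2% of all 27025 windows. With C or T directly before that core, the share was 9 of 25 (36.0%) against 26.2% of tested genes. GTTGCC, part of the site of RFX factors, was in 6 windows (24.0%, against 13.6%), among them Bbs1, Cep97 and Dnaaf6. TGACG, part of the cyclic AMP response element, was in 5 windows (20%, against 30.9%), and its full form TGACGTCA was in none, against 3.17%. CCAAT was in 9 (36.0%, against 38.9%). TATAAA was in 1, Cep97 (4.00%, against 7.29%). The windows were also poorer in CpG: the median ratio of observed to expected CpG was 0.595 against 0.75 over tested genes, and 12 of 25 (48.0%) reached 0.6 against 69.1%. These are descriptions of short letter matches and base composition; the longer MYB and cyclic AMP motifs contain the shorter ones, both strands were read, and no test was made of the difference.

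For 6 of the 25 genes another gene started on the opposite strand within 1000 bases upstream, against 18.4% of tested genes. The neighbours, which are not among the 35, did not always share the course. Beside 1700040D17Rik, 289 bases away, lies Tdrkh, which encodes a mitochondrial piRNA factor; Tdrkh averaged 9.58 in pre-leptotene, 8.84 in mid-pachytene and 8.06 in diplotene. Deaf1, a transcription factor gene that starts 405 bases from Tmem80, averaged 7.16 in pre-leptotene and 4.78 in diplotene, the opposite direction to Tmem80. Ccdc163, 210 bases from Mmachc, averaged 6.54 in pre-leptotene, 10.37 in diplotene and 9.42 in round spermatids, and so kept most of its level where Mmachc did not. 4931428L18Rik, 183 bases from Dnaaf6, also rose, from 4.07 in pre-leptotene to 8.80 in diplotene, and stood at 9.0 in round spermatids. Sprtn, beside Exoc8, and Gm36883, beside Susd5, were not among the genes tested.

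**Figure D2:**
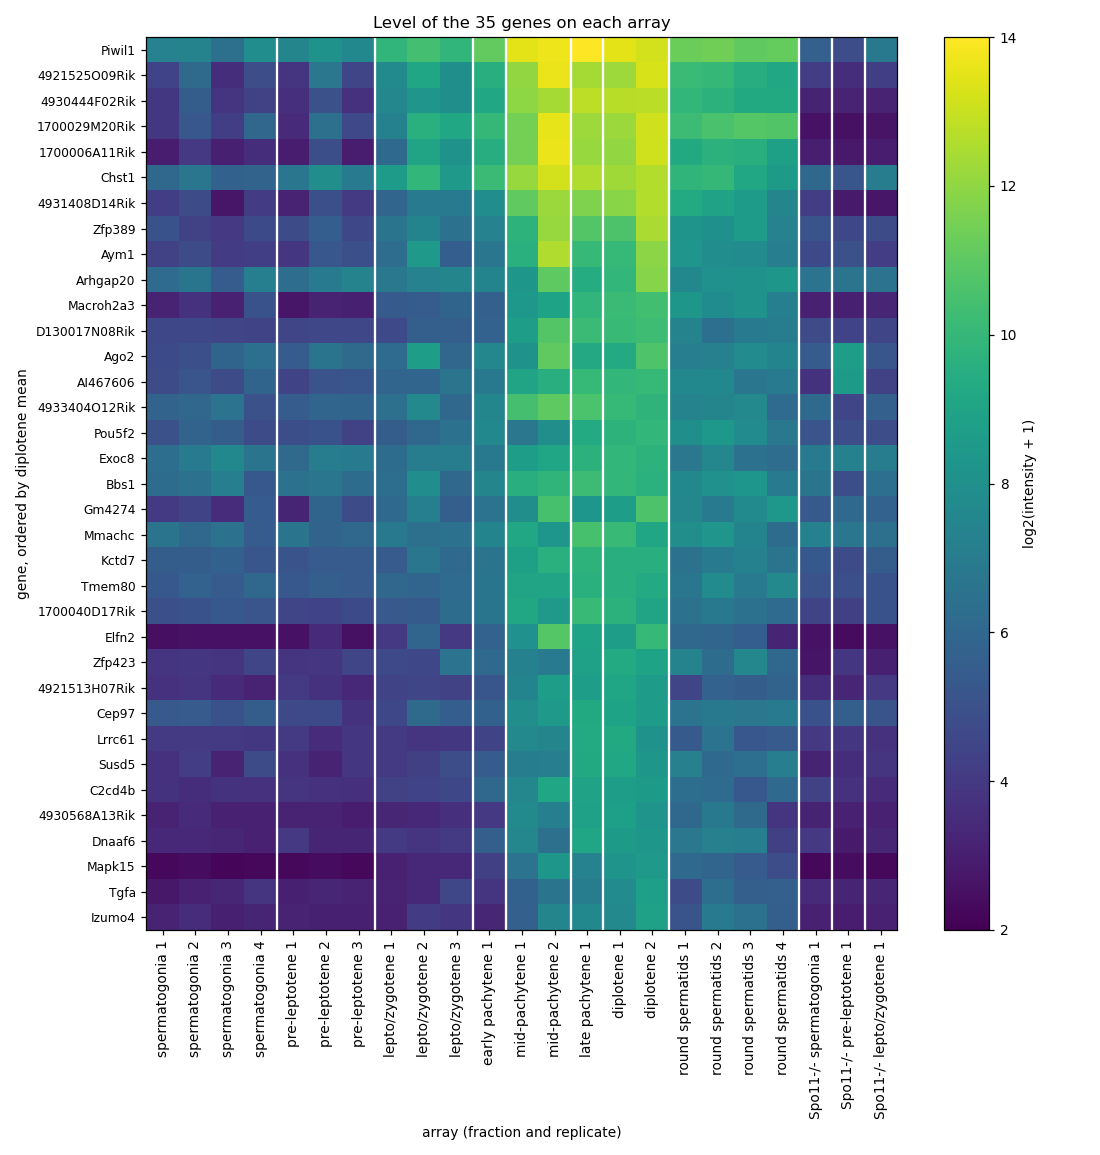
Level of each of the 35 genes (rows, ordered by diplotene mean) on each of the 23 arrays (columns, grouped by fraction), as log2(intensity + 1). Levels are low to the left, high from mid-pachytene to diplotene, intermediate in round spermatids, and low again on the 3 Spo11-/- arrays at the right, apart from Ago2 and AI467606 in Spo11-/- pre-leptotene cells.

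The rise was also tested on arrays that the thresholds did not use, although the choice of genes bears on the outcome. Mid-pachytene cells (2 arrays) were compared with pre-leptotene cells (3 arrays) in a fit over all wild-type arrays. A call needed a log2 change of at least 1 and a limma p below 0.05 after Benjamini-Hochberg adjustment across 13087 genes. All 35 genes rose. For 9 of them every pre-leptotene array was below the floor of log2 4, so the fitted change starts from an undetected level; their mid-pachytene means stood 2.16 (Tgfa) to 5.47 (Elfn2) above the floor. Over all genes, 20.2% were called higher in the same comparison. The changes of the 35 ran from 2.16 (Exoc8) to 8.99 (1700006A11Rik), with a median of 4.35 beside -0.03 for all genes. Against spermatogonia (4 arrays) all 35 were also higher, beside 17.5% of all genes, with a median of 4.26. Both comparisons use the same mid-pachytene arrays, so they are not independent. These arrays entered the rule only through the choice of probe set. The genes had been chosen for a high level in diplotene and a level lower by at least 3 in leptotene/zygotene. A rise to mid-pachytene from still earlier fractions was therefore likely in advance, and the counts are no independent support for it. The 7 genes below the floor on all spermatogonia and pre-leptotene arrays passed the filter only through later arrays.

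Without mid-pachytene replicate 2, 33 of the 35 calls against pre-leptotene cells held; Ago2 (2.07 ± 0.91, limma adjusted p = 0.11) and Arhgap20 (1.48 ± 0.68, adjusted p = 0.125) did not. Against spermatogonia Pou5f2 (1.48 ± 0.54, adjusted p = 0.0615) was the gene lost.

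Piwil1 encodes MIWI, the PIWI protein that carries pachytene piRNAs and without which spermatids do not mature. Its level was 7.30, 7.37, 6.43 and 7.89 in spermatogonia, 7.47, 8.14 and 7.60 in pre-leptotene, 9.91, 10.41 and 9.88 in leptotene/zygotene, 11.10 in early, 13.51 and 13.70 in mid- and 14.08 in late pachytene, 13.49 and 13.18 in diplotene, and 11.30, 11.42, 11.09 and 11.18 in round spermatids. Every leptotene/zygotene array lay above every earlier one, and the 4 round spermatid arrays lay close to the early pachytene value and below all later prophase arrays. The rise from pre-leptotene to mid-pachytene was 5.87 ± 0.35 (SE; limma adjusted p = 4.68e-08). Of 28 piRNA pathway and germ granule genes tested, 12 were higher in mid-pachytene and 2 were lower, with a median of 0.84; Piwil1 had a larger change than Mybl1, the transcription factor gene of pachytene piRNA loci (3.49 ± 0.40), Tdrd5 (3.22 ± 0.46) and Pld6 (2.60 ± 0.30). Tex15 (-1.83 ± 0.28) and Btbd18 (-1.43 ± 0.38) fell.

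Ago2 encodes the slicing Argonaute protein of the microRNA and small interfering RNA pathways. It measured 5.49, 6.63 and 6.15 in pre-leptotene, 6.18, 8.74 and 5.95 in leptotene/zygotene, 7.54 in early, 8.16 and 11.05 in mid- and 9.24 in late pachytene, 9.32 and 10.72 in diplotene and 7.13 to 7.78 in round spermatids. Replicate 2 was the high array in pre-leptotene, leptotene/zygotene, mid-pachytene and diplotene, and in leptotene/zygotene it overlapped the mid-pachytene level. The rise against pre-leptotene was 3.52 ± 0.84 (limma adjusted p = 0.00307). Ago2 has 3 other probe sets, none of which met the thresholds: one reached 7.88 in diplotene with a drop of 3.27 to spermatids, another 7.73 with a drop of 1.51, and the third 5.30 with a drop of 1.62. The course of Ago2 thus depends on the probe set.

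Pou5f2, also known as Sprm1, encodes a POU domain transcription factor of male germ cells. It came later than most: 4.87, 5.01 and 4.32 in pre-leptotene, 6.77 and 7.95 in mid-pachytene, 9.34 in late pachytene, 9.77 and 9.96 in diplotene, and 7.98, 8.40, 7.77 and 6.80 in round spermatids. Mid-pachytene overlapped the spermatid values, while late pachytene and diplotene lay above both. The rise from pre-leptotene to mid-pachytene was 2.63 ± 0.47 (limma adjusted p = 0.000315). Of 35 transcription regulators of late prophase and spermatids on the fixed list, 17 were higher in mid-pachytene and 6 lower; the higher genes included Rfx4 (5.90 ± 0.52), Hsf5 (5.71 ± 0.60) and Rfx2 (5.07 ± 0.57).

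Zfp423, a zinc finger transcription factor gene named here after its values were seen, took a course like that of Pou5f2, with 7.28 and 7.0 in mid-pachytene, 8.85 in late pachytene, 9.35 and 8.98 in diplotene and 7.38, 6.24, 7.57 and 6.04 in round spermatids. It was 3.84, 3.89 and 4.49 in pre-leptotene, and the rise to mid-pachytene was 3.06 ± 0.55 (limma adjusted p = 0.000324). Mid-pachytene again lay within the range of the spermatid arrays. Zfp389, annotated as a transcribed zinc finger pseudogene, rose by 5.98 ± 0.63, from 4.76, 5.59 and 4.59 to 9.78 and 12.13. Macroh2a3, a transcribed pseudogene named for the macroH2A histone family, went from 2.72, 3.14 and 3.06 to 8.38 and 8.97 (5.71 ± 0.47, or at least 4.68 counted from the floor), with 10.20 and 10.38 in diplotene and 7.20 to 8.37 in spermatids. Its second probe set differed by 1.74 between diplotene and spermatids, short of the threshold.

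Of the fixed list of axoneme and cilium genes, 62 of which are on the array, 1 was among the 35. Dnaaf6, also called Pih1d3, is needed to assemble the dynein arms that move cilia and sperm tails. It measured 3.98, 3.22 and 3.24 in pre-leptotene, 5.63 in early, 7.56 and 6.41 in mid- and 9.06 in late pachytene, 8.56 and 8.36 in diplotene, and 6.74, 7.21, 7.15 and 4.26 in round spermatids. Replicate 4 of the spermatids lay far below the other 3, whose values overlapped mid-pachytene. Its rise was 3.5 ± 0.64 (limma adjusted p = 0.000378), or at least 2.98 counted from the floor. Of the 59 list genes tested, 56 rose in mid-pachytene against pre-leptotene, with a median of 4.45. The median level of all 62 list genes on the array stayed at 11.5 to 11.9 in round spermatids against 11.4 and 11.5 in diplotene. Dnaaf6 was the only one of them that met all 3 thresholds. Its difference between diplotene and spermatids was 2.12, and it met the spermatid threshold only with the low replicate 4 included.

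Bbs1, a subunit of the BBSome that moves membrane proteins in cilia, was likewise named after its values were seen. It measured 9.57 and 9.86 in mid-pachytene, 10.24 in late pachytene, 9.97 and 9.67 in diplotene and 7.58, 8.09, 8.29 and 6.91 in spermatids, with a rise of 3.24 ± 0.56 over pre-leptotene values of 6.50, 6.73 and 6.22. Cep97, a centriolar protein that restrains cilium formation, rose by 3.84 ± 0.39, from 4.65, 4.68 and 3.76 to 7.93 and 8.48. It stood at 8.97 and 8.64 in diplotene and 6.55 to 7.0 in spermatids, and was 1 of the 2 genes closest to the spermatid threshold, with a difference of 2.01. Its 3 other probe sets had differences of 0.91 to 1.09. Mapk15, an atypical MAP kinase, stood near the lowest values of the array at 2.26, 2.39 and 2.26 in pre-leptotene and at 6.59 and 8.35 in mid-pachytene (5.17 ± 0.42, or at least 3.47 counted from the floor).

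Among genes of the cell surface and of sugar chains, Chst1, a sulfotransferase that acts on keratan sulfate, measured 6.70, 7.94 and 6.96 in pre-leptotene, 8.58, 9.94 and 8.49 in leptotene/zygotene, 12.16 and 13.19 in mid-pachytene, 12.56 in late pachytene, 12.28 and 12.63 in diplotene and 9.86, 9.98, 9.15 and 8.53 in spermatids. Its spermatid values overlapped leptotene/zygotene and lay well below every array from mid-pachytene to diplotene. The rise was 5.48 ± 0.53 (limma adjusted p = 1.99e-06). Elfn2, a membrane protein with leucine-rich repeats, had a difference of 4.18 between diplotene and spermatids, the largest among genes that met the first 2 thresholds; without spermatid replicate 4 it was 3.53, below the 3.58 of 4921513H07Rik. Its values were 2.61, 3.49 and 2.52 in pre-leptotene, 8.09 and 10.86 in mid-pachytene, 8.71 and 10.02 in diplotene, and 6.01, 5.92, 5.58 and 3.24 in round spermatids. One spermatid array lay far below the other 3, and all 4 lay below both diplotene arrays.

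Tgfa, a ligand of the epidermal growth factor receptor, reached within 1 of its diplotene mean only in diplotene itself: it was 5.73 and 6.59 in mid-pachytene, 7.03 in late pachytene, 7.81 and 8.75 in diplotene and 4.81, 6.36, 5.62 and 5.66 in spermatids. Its other 2 probe sets had means of 2.29 to 3.28 in these fractions and did not follow. Izumo4, of the Izumo family of sperm proteins, and Tgfa were the genes just inside the diplotene threshold (8.26 and 8.28); Igdcc4 (7.86) and Dcdc2a (7.82) were just outside it. At the leptotene/zygotene threshold Mmachc (3.01) and Exoc8 (3.05) were inside and Ddx19b (2.98) and Jmjd8 (2.94) outside, and at the spermatid threshold Cep97 (2.01) and Susd5 (2.01) were inside and Oxsm (1.88) and Lyrm9 (1.86) outside.

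Exoc8, an exocyst subunit of secretory traffic, went from 6.16, 7.04 and 6.97 in pre-leptotene to 8.66 and 9.12 in mid-pachytene (2.16 ± 0.42, limma adjusted p = 0.000674), reached 9.93 and 9.75 in diplotene and returned to 6.77, 7.53, 6.52 and 6.30 in spermatids. Its spermatid values overlapped its pre-leptotene and leptotene/zygotene values. Mmachc, which processes vitamin B12 in the cell, went from 6.62, 5.82 and 6.02 to 9.22 and 8.29 (2.60 ± 0.52), with 10.07 and 9.11 in diplotene and 6.23 to 8.25 in spermatids. Arhgap20, a GTPase-activating protein, was 8.35 and 11.03 in mid-pachytene and 9.93 and 11.84 in diplotene, and rose by 2.83 ± 0.68 over pre-leptotene.

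Among the remaining genes with a called rise, Aym1 went from 3.90, 5.26 and 4.95 in pre-leptotene to 9.62 and 12.57 in mid-pachytene (6.40 ± 0.83) and stood at 7.15 to 8.26 in spermatids. C2cd4b went from 3.81, 3.71 and 3.67 to 7.57 and 9.08 (4.59 ± 0.36, or at least 4.32 counted from the floor), and its 2 diplotene arrays were 8.69 and 8.54. Kctd7, a BTB domain protein, went from 5.14, 5.44 and 5.43 to 8.84 and 9.60 (3.88 ± 0.35), with 6.49 to 7.29 in spermatids. A second probe set of Kctd7 was nearly level, with means of 6.6 in pre-leptotene, 7.24 in mid-pachytene, 7.19 in diplotene and 6.81 in spermatids. Lrrc61, with leucine-rich repeats by its name, came up late, at 4.45 in early pachytene, 7.65 and 7.47 in mid-pachytene and 9.33 in late pachytene, and its rise was 3.73 ± 0.36. For these 4 genes no spermatid array reached the lower of the mid-pachytene arrays.

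The long non-coding RNA 4930444F02Rik, named here outside the rule for named genes and after its values were seen, measured 3.60, 4.99 and 3.73 in pre-leptotene, 7.55, 8.25 and 7.98 in leptotene/zygotene, 9.19 in early, 11.95 and 12.40 in mid- and 12.79 in late pachytene, 12.73 and 12.75 in diplotene and 9.95, 9.73, 9.30 and 9.27 in round spermatids. No neighbouring fractions overlapped from pre-leptotene to mid-pachytene, and the rise was 8.07 ± 0.48 (limma adjusted p = 4.68e-08). A second probe set of this gene, at 10.97 in diplotene and 10.43 in round spermatids, differed by 0.54. The gene 1700029M20Rik showed the same disagreement, with differences of 2.05 and 0.32 from its 2 probe sets. Over the 13 genes with further probe sets, 7 of 18 other probe sets had a diplotene mean of at least 8; of these 3, for 4921525O09Rik, AI467606 and Susd5, met all thresholds, and 4 had a spermatid difference below 2.

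**Figure D3:**
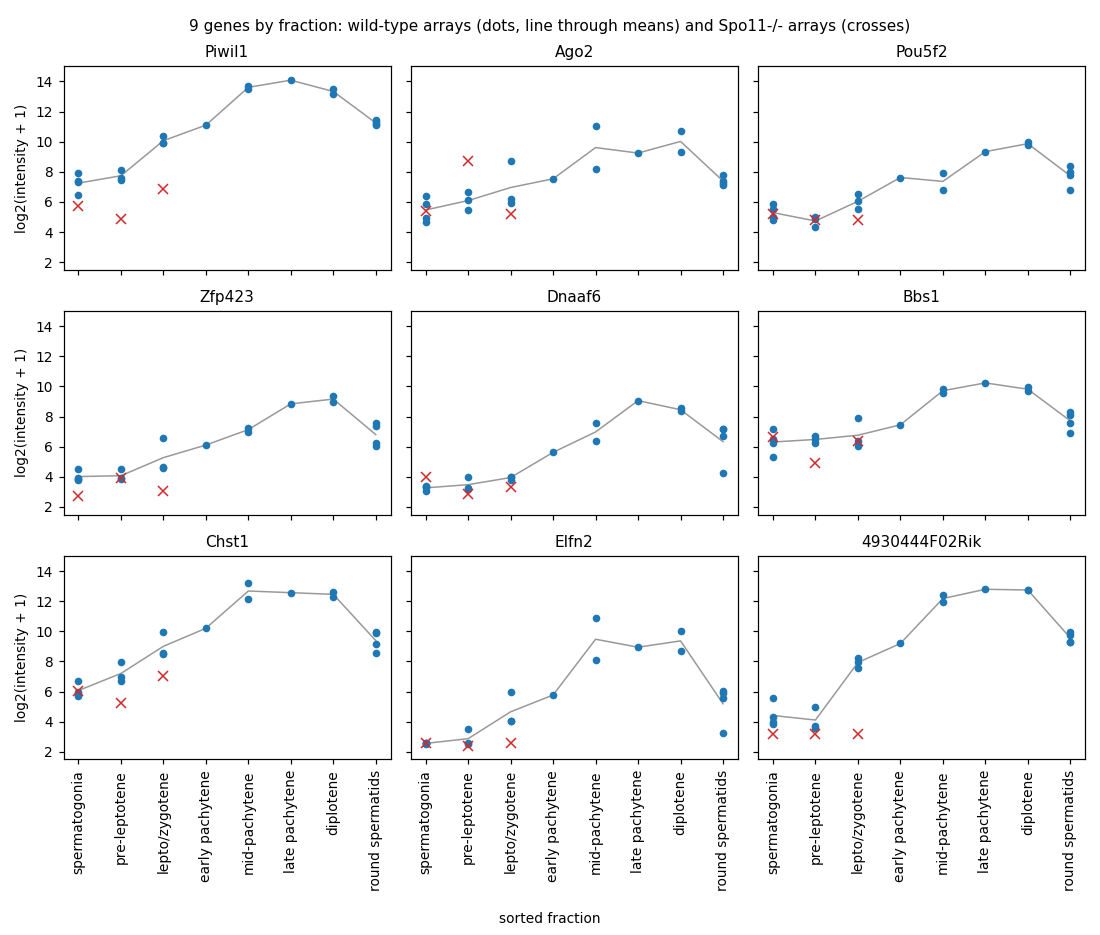
Level (log2(intensity + 1)) of 9 of the genes in the 8 sorted fractions, with a dot for each wild-type array, a line through fraction means and a cross for each Spo11-/- array. Piwil1, Chst1 and 4930444F02Rik reach their plateau by mid-pachytene; Pou5f2, Zfp423 and Dnaaf6 go on rising to late pachytene or diplotene, and the crosses lie within or below the dots except for Ago2 in pre-leptotene and Dnaaf6 in spermatogonia.

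The members differed in when they came up. Taking as arrival the first fraction whose mean was within 1 of the diplotene mean, 25 arrived by mid-pachytene, 8 by late pachytene and 2, Tgfa and Arhgap20, only in diplotene. The wild-type fraction with the highest mean was diplotene for 16, late pachytene for 14 and mid-pachytene for 5. Most genes rose between early and mid-pachytene: on the single early pachytene array 34 of the 35 were below both mid-pachytene arrays. For 29 the gap was at least 1, beside 7.44% of genes tested. The rule asks for a rise of at least 3 from leptotene/zygotene to diplotene and so favours such counts. Pou5f2 was the exception, with 7.62 in early pachytene between the mid-pachytene values. This was not the largest step for every gene. The mean of 1700006A11Rik rose by 4.17 from pre-leptotene to leptotene/zygotene, and from 9.50 to 12.57 between early and mid-pachytene. Susd5 went from 5.50 in early to 7.08 in mid- and 9.28 in late pachytene. For 15 genes the early pachytene value did not exceed the highest leptotene/zygotene array. On the single late pachytene array 20 genes lay above both mid-pachytene arrays, 7 of them by at least 1 (Pou5f2, Zfp423, Dnaaf6, Mmachc, Susd5, Lrrc61 and 4930568A13Rik), beside 6.50% of genes tested, and none lay 1 below. Early and late pachytene have 1 array each, so these differences have no replicate check.

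Between the earliest fractions no change was called. Pre-leptotene cells against spermatogonia gave 0 calls of 35 in limma, with 2 unadjusted p-values below 0.05 (Cep97, -0.97 ± 0.33, adjusted p = 0.167; Chst1, 1.13 ± 0.45, adjusted p = 0.291) and a median change of 0.00. Of the 35 genes 7, among them Elfn2, Mapk15 and Dnaaf6, were below the floor on all 7 arrays compared and could show no change; 26 reached it on at least 2 arrays. Over all genes 0.0611% were called higher and 1.64% lower. With the replicate number as a block the counts over all genes were 33 higher and 594 lower, and still 0 of the 35. With array weights Cep97 was called lower (-1.08 ± 0.31, adjusted p = 0.0426). Genes of spermatids were high on the same arrays, and their part in these values was not tested: on the spermatogonia arrays the median of 29 spermatid genes was 9.25 to 12.8, and on the pre-leptotene arrays 7.67 to 9.15, against 12.01 to 12.5 in round spermatids. Of these spermatid genes 15 were lower in pre-leptotene than in spermatogonia. The medians of the 35 genes were 4.05 to 4.81 and 4.04 to 4.99 on the same arrays. All pre-leptotene arrays were below log2 4 for 9 genes and all spermatogonia arrays for 8. In leptotene/zygotene the mean of every one of the 35 exceeded its pre-leptotene mean, by 0.07 to 4.17, and 24 had no overlap between the arrays, beside 13.1% of all genes tested with every leptotene/zygotene array the higher; the median of the 35 was 5.89 to 6.15 on the leptotene/zygotene arrays.

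The 2 arrays of a fraction did not measure the genes alike. In mid-pachytene, replicate 2 exceeded replicate 1 for 29 of the 35 genes, by at least 1 for 17 of them, while over all genes tested 7.26% were higher by at least 1 and the median difference was -0.12. The widest gaps were those of Aym1 (2.95), Ago2 (2.89), Elfn2 (2.77) and Arhgap20 (2.69). For 9 genes replicate 2 was at least 1 higher in diplotene as well, and 7 of these 9 were also at least 1 higher on replicate 2 of leptotene/zygotene. Across the 35 genes the difference in mid-pachytene had a correlation of 0.87 with that in diplotene, 0.66 with leptotene/zygotene, 0.57 with pre-leptotene, 0.17 with spermatogonia and -0.16 with round spermatids; over the 13087 genes the first of these was 0.64. Genes on 1 array share its RNA and are not independent, so these are descriptions. The opposite sign occurred too: Dnaaf6 (-1.15) and Mmachc (-0.93) were lower on replicate 2 of mid-pachytene. What distinguishes arrays numbered 2 is not given in the labels, and its part in the results was not tested.

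**Figure D4:**
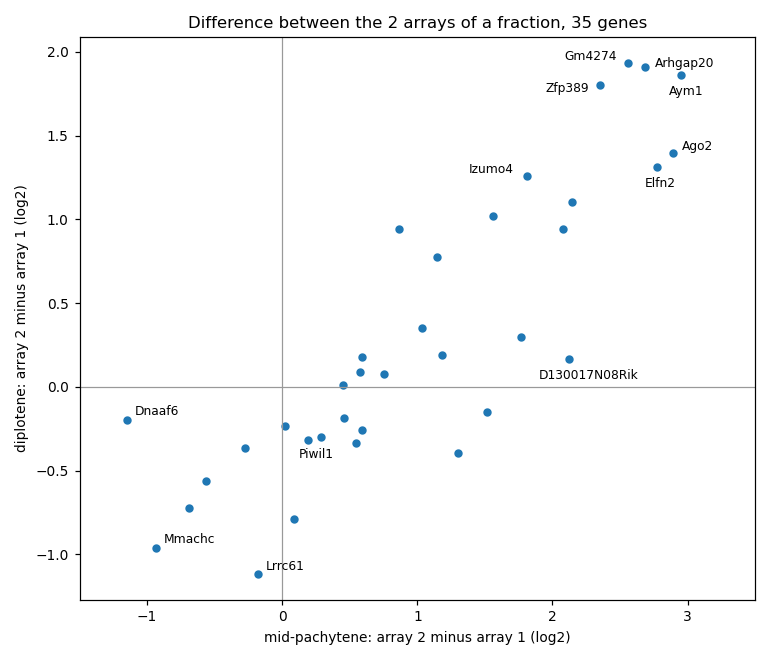
Replicate 2 minus replicate 1 in mid-pachytene (horizontal, log2) and in diplotene (vertical, log2), 1 point per gene for the 35 genes. Points run from Mmachc and Lrrc61 at the lower left to Gm4274, Arhgap20 and Aym1 at the upper right, so that a gene high on one replicate 2 array tended to be high on the other.

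In Spo11-/- cells the fractions that enter the test are spermatogonia and pre-leptotene, where the wild-type genes are already low. Of the 35 genes 26 passed the filter on low values there, and 1, Piwil1, was called lower, beside 4.79% of 11719 genes tested; none was higher, beside 0.444%. The median change was -0.40, and 4 genes had an unadjusted p below 0.05. Piwil1 measured 5.70 in Spo11-/- spermatogonia and 4.84 in Spo11-/- pre-leptotene, below all 7 wild-type arrays of these fractions, which ran from 6.43 to 8.14. The fitted difference of Piwil1 was -2.20 ± 0.43 (limma adjusted p = 0.024). Per the design text, the Spo11-/- fractions came from the same 2 collections of mice, so both Spo11-/- arrays share animals and are not independent samples of the genotype. The design text refers to another series for the wild-type samples; whether both genotypes were processed together is not given, and genotype cannot be told apart from such a batch. Of 18 alternatives 14 kept the call, with adjusted p from 0.0133 to 0.203. It did not pass without pre-leptotene replicate 3 (adjusted p = 0.0534) or without the Spo11-/- pre-leptotene array (-1.55 ± 0.53, adjusted p = 0.203). RNA of later stages moved with it: 25 of 29 spermatid genes were lower in Spo11-/- cells with a median of -6.81, as were 6 of 15 late prophase markers, a list that includes Piwil1, and the summed intensity of the 29 spermatid genes was 33060 to 375700 on the wild-type arrays of these 2 fractions and 870 and 1278 on the Spo11-/- arrays, with Prm1, which packs sperm DNA, at 3.35 and 3.17 against 13.5 to 15.4. Its part in the Piwil1 difference was not tested.

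In leptotene/zygotene, where the wild-type arrays entered the rule, the single Spo11-/- array lay below all 3 wild-type arrays for 28 of the 35 genes, beside 34.5% of all genes tested. For 7 genes it was lower by at least 2: Piwil1, Macroh2a3, 1700006A11Rik and 4 of the long non-coding RNAs, beside 5.41% of all genes tested. The widest separation was that of 1700029M20Rik, at 2.62 in Spo11-/- cells against 7.29, 9.64 and 9.17. For Piwil1 the value was 6.86 against 9.91, 10.41 and 9.88. On that array 16 of the 35 genes were below log2 4. The gene median there was 4.23, close to the 4.31 and 4.27 of the earlier Spo11-/- fractions, whereas wild-type medians went from at most 4.99 to at least 5.89. With 1 array there is no replicate check, and the choice of genes for a low wild-type value in this fraction bears on these numbers. RNA of later stages was also lower on that array: the 29 spermatid genes summed to 991 against 45390 to 64120 in wild type. Late prophase markers, a list that includes Piwil1 and Pou5f2, summed to 8975 against 26200 to 53040. The part of such RNA in these differences was not tested.

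**Figure D5:**
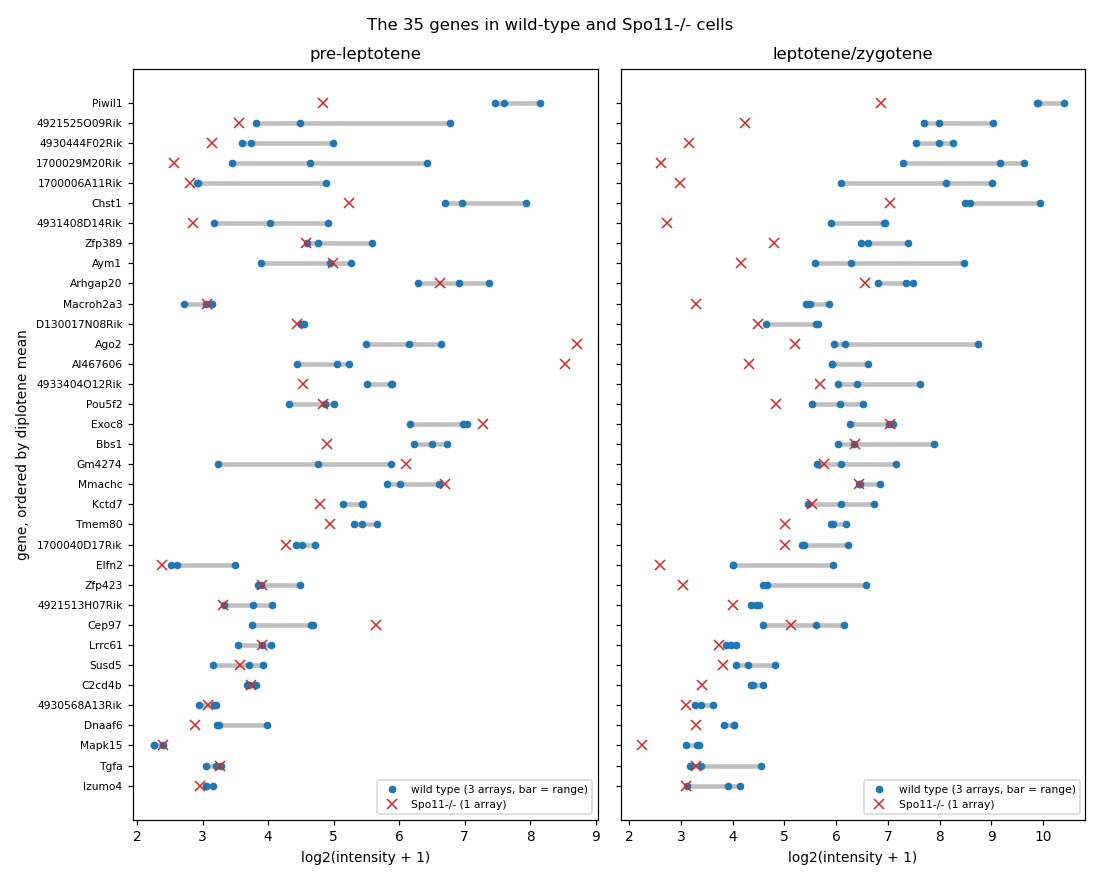
Level (log2(intensity + 1)) of each of the 35 genes in pre-leptotene (left) and leptotene/zygotene cells (right): dots and a bar for the 3 wild-type arrays and their range, a cross for the single Spo11-/- array. On the left the crosses of Ago2 and AI467606 lie more than 2 above the wild-type arrays and that of Piwil1 more than 2 below; on the right 28 of the crosses lie to the left of every wild-type dot, beside 34.5% of all genes tested.

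Ago2 and AI467606 went the other way on the Spo11-/- pre-leptotene array. AI467606, a protein-coding gene with a predicted name and so named here outside the rule for named genes, measured 8.53 there against 4.44, 5.05 and 5.23 in wild-type pre-leptotene cells, and 3.74 in Spo11-/- spermatogonia against 4.73 to 5.89. Ago2 measured 8.71 against 5.49, 6.63 and 6.15. These were the 2 of the 35 genes at least 2 above all wild-type arrays of the fraction, beside 2.97% of genes tested, and Piwil1 was the 1 at least 2 below, beside 2.87%. The genotype effect of AI467606 differed between the 2 fractions by 5.003 ± 0.73 (limma interaction, adjusted p = 0.0219), 1 of 150 genes at that threshold; that of Ago2 differed by 2.66 ± 0.98 (adjusted p = 0.331). Each Spo11-/- fraction is 1 array, so the wild-type arrays alone supply the spread in this test and the Spo11-/- arrays are assumed to vary like them. Markers of T cells were high on the same array: Cd3g 11.4, Cd3d 10.4, Ccl5 10.0, Il7r 9.89, Cd3e 8.87, Cd2 8.85 and Cd8a 6.28, while Cd4 was 2.95. Of the 8 T cell markers measured 7 had their highest value of all 23 arrays there, and their summed intensity was 7114 against 58.0 to 63.5 on the wild-type pre-leptotene arrays. The macrophage list was higher in sum, at 10220 against 80.5 to 1178, mostly through Ptprc, the common leukocyte antigen, at 12.9 and Lyz2 at 11.0. Mrc1 and Adgre1 were also above every wild-type pre-leptotene array. Csf1r (7.51 against 8.68), Cd14, Cd68, C1qa, C1qb and C1qc were below wild-type pre-leptotene replicate 1, though above the other replicates. Peritubular and stromal markers summed to 4464 against 596 to 1867. Dcn (11.6), Col1a2, Col3a1 and Pdgfra were above every wild-type pre-leptotene array, while Acta2, Myh11, Col1a1 and Lum were not. Sertoli cell markers summed to 10700 against 2278 to 5824, and to 9971 on the Spo11-/- leptotene/zygotene array. The part of such cells in the Ago2 and AI467606 values was not tested.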

How the data were processed

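Per the submitters' processing notes, the authors summarised the arrays with GCRMA, and the deposited values are linear intensity per probe set; version and settings are not given in the sources used here. The values of 23 arrays were analysed as log2(value + 1). Of 45037 probe sets, 34945 had 1 gene symbol; 932 had several and 9160 were not listed in the platform table, and both were left out. Symbols, biotypes and upstream sequences came from RefSeq GRCm38.p6.

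Genes at log2 4 or more in at least 2 arrays of a fit entered limma 3.58.1 under R 4.3.3 (lmFit, eBayes), with a mean per fraction over 20 wild-type arrays, and fraction plus genotype over the 9 arrays of spermatogonia and pre-leptotene. Errors after ± are standard errors. The scripts were tested on simulated data. The number of arrays limits the precision. Genes named in the text, leaving out predicted names, were the 12 with the largest differences between diplotene and spermatids, the 8 with the highest diplotene means, members of the role lists, the 2 on each side of a threshold, and the 8 largest called changes in each direction of each comparison; other names are marked in the text. The genes and lists were chosen with earlier results of these data known.

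Same-numbered arrays of pre-leptotene and spermatogonia deviated together (correlations of 0.60, 0.57 and 0.22 over genes), although pre-leptotene 3 correlated more with spermatogonia 4 (0.41) than with 3. A pairing by number comes from the data, not the labels. The main fits did not use it, and it entered only the alternative with a replicate block.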

Additional observations from a re-analysis of the deposited data

Results flagged for a closer look

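Among 72 sets of 4 arrays looked at (the 35 genes and their median, in spermatogonia and in round spermatids), 5 held an array far from the other 3; chance flags about 1 in 20. In round spermatids, replicate 4 was low for Elfn2 (3.24, others 5.58 to 6.01) and for Dnaaf6 (4.26, others 6.74 to 7.21), and replicate 2 was high for Lrrc61 (6.55, others 5.27 to 5.43). Replicate 4 was the lowest of the 4 spermatid arrays for 19 of the 35 genes, and the median over all genes was also lowest on it, 6.93 against 7.33 to 7.47. In spermatogonia, 4930568A13Rik on replicate 2 (3.41, others 3.12 to 3.14) and Zfp423 on replicate 4 (4.49, others 3.81 to 3.92) stood above the rest near the floor. The genotype effect of AI467606 in pre-leptotene exceeded that in spermatogonia by 5.003 in limma's interaction test, where each Spo11-/- fraction is 1 array and the wild-type arrays alone supply the spread.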

How the results depend on the processing

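Under the alternatives all 35 genes kept a called rise from pre-leptotene to mid-pachytene, except Ago2 and Arhgap20 without mid-pachytene replicate 2; against spermatogonia the exceptions were Pou5f2 without that array and Tgfa with the mean over probe sets (0.98). Leaving out single arrays gave 1305 to 2684 lower calls over all genes against pre-leptotene (2609 with all arrays) and 1177 to 2618 against spermatogonia (2511), the low counts without mid-pachytene replicate 2. Pre-leptotene against spermatogonia, with 8 genes higher and 215 lower, gave 1 and 9 with no filter, 4 higher with the filter at log2 6, and 48 lower with a pseudocount of 16, 93 with the mean over probe sets, 31 after quantile normalization and 28 after median centring. Array weights gave 41 and 789, with 1 of the 35 lower; only the arrays of the 2 fractions gave 0 and 0; the replicate block gave 33 and 594 and changed no call of the 35 in the 3 wild-type comparisons. Leaving out single arrays gave 1 to 32 higher and 6 to 563 lower; the fewest higher calls came without spermatogonia replicate 1 or replicate 2, the fewest lower ones without pre-leptotene replicate 3, and the most of both without spermatogonia replicate 4. Spo11-/- against wild type, with 52 higher and 561 lower, gave 19 and 257 with no filter, 24 and 266 with a pseudocount of 16, 106 higher after median centring, and 4 and 148 with array weights; with no filter and with array weights 0 of the 35 were lower (Piwil1, adjusted p = 0.0568 and 0.0837 in limma). Leaving out single arrays gave 4 to 356 higher and 199 to 616 lower, with 0 to 1 of the 35 higher (AI467606, without the Spo11-/- spermatogonia array) and 0 to 1 lower. The interaction gave 500 genes with no filter against 150. Thresholds 0.5 higher or lower chose 14 or 93 genes, and leaving out single arrays 30 to 49; a pseudocount of 16 chose 26, the mean over probe sets 28, and quantile normalization 30, of which 26 were among the 35. Without diplotene replicate 1 or replicate 2, 29 of the 35 remained. Without round spermatid replicate 4, 31 remained, and Pou5f2, Dnaaf6, Bbs1 and Mmachc did not. The cause of these changes was not tested. Signals near the floor, where many of these genes lie before leptotene, limit what small differences the arrays can show.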
